A study of Mus musculus with 6 samples.

Results

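The genes of the unfolded protein response and the integrated stress response were examined in primary mouse motoneuron cultures with and without normal Ighmbp2, a helicase gene whose loss causes a motoneuron disease, spinal muscular atrophy with respiratory distress. The set held 40 of the 39174 genes in the expression tables, chosen by symbol as known members of these pathways. The choice was made with earlier results of these data known. All 40 were found, and all 40 had a mean of at least 1 FPKM (fragments per kilobase of transcript, scaled to the mapped fragments of the library) over the 6 libraries, the level required for testing. The 6 libraries came from primary cultures of strain CD-1, 3 of them homozygous for the nmd allele of Ighmbp2 (Nmd-/-) and 3 with the normal allele on both chromosomes (Nmd+/+). No treatment is named for either genotype, and the replicates of each are numbered 1 to 3 in the labels. Whether the replicates were separate cultures or animals is not stated, and the p-values therefore reflect the spread of these libraries alone, part of which may be technical.

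Protein that fails to fold in the endoplasmic reticulum (ER) is sensed there by the membrane proteins PERK, IRE1 and ATF6. PERK, with the kinases HRI, PKR and GCN2, phosphorylates the translation factor eIF2α, which lowers protein synthesis in general while the mRNA of the transcription factor ATF4 is translated more. ATF4 in turn raises genes for amino acid supply, for one-carbon metabolism and for feedback on the pathway. IRE1 splices the mRNA of XBP1, and cleaved ATF6 enters the nucleus, and both factors raise ER chaperones, folding enzymes and the machinery that degrades misfolded protein. Many ER genes answer to both factors, so the XBP1 and ATF6 groups used here follow textbook usage and are not exclusive. Motoneurons, with their long axons, are a cell type in which these responses have been studied widely in disease. Gene-level RNA does not separate spliced from unspliced Xbp1 and measures neither eIF2α phosphorylation nor ATF4 translation nor ATF6 cleavage.

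No gene of the set differed between genotypes beyond the spread of the replicates. As a description that was not tested, replicate 2 of both genotypes carried the highest levels of 17 of the 20 genes of the ATF4 arm and of 6 of the 16 genes of the XBP1 and ATF6 arms. Nupr1, Trib3 and Atf3 reached a mean of 1 FPKM only through these libraries, and without them the count for the ATF4 arm was 14 of 17. The step of replicate 2 was larger in the median over the ATF4 arm than over the XBP1 and ATF6 arms, with overlap between single genes. Throughout, the 3 values of a genotype are given in the order of replicates 1, 2 and 3.

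The libraries were first checked against their labels. Ighmbp2 measured 0.876, 0.788 and 0.598 FPKM in Nmd-/- cultures, against 1.44, 1.3 and 1.09 FPKM in Nmd+/+ cultures, with no overlap. Its log2 difference of -0.38 did not pass the test used below (adjusted p = 0.9997 in limma). Nor did it pass with the replicate number in the model (adjusted p = 0.944 in limma). A difference of this size in a gene of this level was thus not called with these 6 libraries. Judged by the 95% intervals that Cufflinks gives each FPKM, the depth was equivalent to between 15376295 and 23063074 fragments per library. Markers that define motoneurons were near 0: Chat, which encodes the enzyme making acetylcholine, did not exceed 0.0692 FPKM, Mnx1 was at 0 in 4 libraries, and 1 of the 7 markers in the files, Isl1, reached a mean of 1 FPKM. The levels below are thus those of the whole culture as sequenced, and in such bulk RNA fewer cells of a type and less RNA per cell cannot be told apart. Replicate 2 of both genotypes stood apart by fibroblast transcripts, whose markers were listed with earlier results of these data known. All 6 fibroblast markers were highest in these libraries, with a summed level of 3.52, 174 and 3.05 FPKM in Nmd-/- cultures and 2.22, 141 and 2.34 FPKM in Nmd+/+ cultures. Xist, which is transcribed from an inactivated X chromosome, was near 0 (0.143 and 0.155 FPKM) in Nmd-/- replicate 3 and Nmd+/+ replicate 2 and at least 225 FPKM in the other 4 libraries, so the replicates of a genotype were not all of one sex.

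Compared between genotypes, 0 of 40 genes passed limma's moderated test at a Benjamini-Hochberg adjusted p of 0.05 over all 14611 genes tested, of which 0% passed. Each of the 40 had an adjusted p of 0.9997 in limma. Also 0 of 40 had an unadjusted p under 0.05, where 0.274% of all genes did so with higher and 0.171% with lower values in Nmd-/- cultures. The 3 Nmd-/- values and the 3 Nmd+/+ values of a gene overlapped for all 40, whereas 1.76% of all genes were higher in Nmd-/- without overlap and 0.91% lower. By their means on the log2(FPKM + 1) scale 28 of 40 were higher in Nmd-/- cultures and 12 lower, or 70% higher against 56% of all genes. With median-of-ratios scaling between libraries the split was 21 higher and 19 lower, or 52.5% against 48.7%. The split rested on single libraries, with 7 higher and 33 lower without Nmd+/+ replicate 3 and 35 higher and 3 lower, of 38 tested, without Nmd+/+ replicate 2. The median log2 difference of the 40 genes was 0.03, beside 0.02 for all genes, and the range ran from -0.26 (Sel1l) to 0.31 (Phgdh).

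The replicate numbers paired the libraries across genotypes, as a comparison of their deviations showed, and a model with the replicate number as a block gave smaller errors. The median standard error (SE) of a member's difference was 0.11 with the block and 0.21 without it. With the block 0 of 40 genes passed in limma either (0% of all genes), and the members' adjusted p lay between 0.990 and 0.999. An unadjusted p under 0.05 was reached by 2 genes, Atf5 and Phgdh, both higher in Nmd-/- cultures, or 5% against 3.13% of all genes, and by 0 genes in the lower direction, against 1.74%. The 95% intervals of the differences with the block lay between -1 and 1 on the log2(FPKM + 1) scale for all 40 genes, and without the block for 30 of 40. In same-numbered pairs, 8 genes were higher in the Nmd-/- library of every pair (20% against 14.9% of all genes), namely Atf5, Atf6, Pdia4, Phgdh, Sesn2, Slc3a2, Slc7a5 and Syvn1. A further 4 were lower in every pair (10% against 10.6%), namely Chac1, Ddit3, Psph and Trib3. Neither share stood far from that of all genes.

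**Figure D1:**
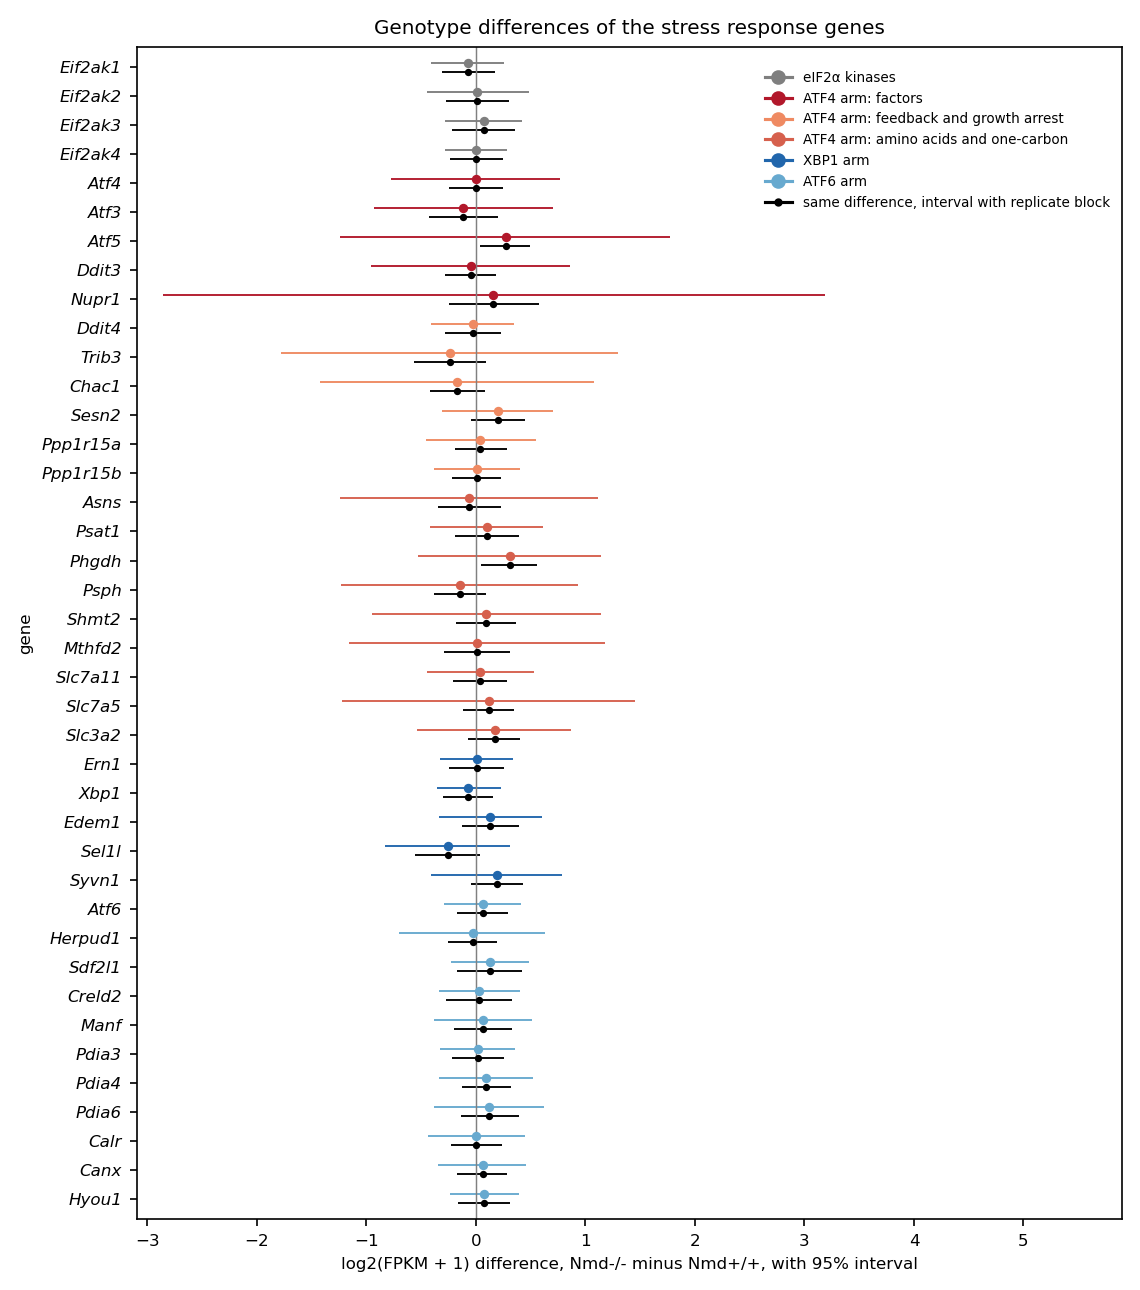
Difference in log2(FPKM + 1) between Nmd-/- and Nmd+/+ cultures (x axis) for each of the 40 genes (y axis), with its 95% interval from limma without a replicate block (coloured by role) and with it (black). Each coloured interval includes 0, the widest belong to genes of the ATF4 arm, and with the block only the intervals of Atf5 and Phgdh leave 0 out.

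The kinases that phosphorylate eIF2α were all present at low to moderate levels. Eif2ak1, which encodes the heme-regulated kinase HRI, measured 12.9, 10.4 and 12.8 FPKM in Nmd-/- cultures, against 14.2, 11.8 and 12.1 FPKM in Nmd+/+ cultures (log2 difference -0.07, SE 0.14, 95% interval -0.41 to 0.26). Eif2ak3, which encodes PERK, the kinase of the ER, measured 4.62, 3.74 and 3.81 FPKM in Nmd-/- cultures, against 3.57, 4.54 and 3.39 FPKM in Nmd+/+ cultures (log2 difference 0.07, SE 0.15, 95% interval -0.28 to 0.42). The genotypes overlapped for each of them, with no library standing apart. Eif2ak4, which encodes GCN2, the sensor of uncharged tRNA, was the steadiest gene of the set, between 3.82 and 4.18 FPKM over the 6 libraries. Eif2ak2, which encodes the kinase PKR activated by double-stranded RNA, lay between 5.98 and 9.61 FPKM. The median log2 difference of the 4 kinases was 0.01. Eif2ak1, Eif2ak2 and Eif2ak3 each share at least 100 exon bases with a gene on the other strand in the GENCODE M21 annotation, and whether strand was used in quantification is not given in the sources used here.

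Among the factors of the ATF4 arm the genotypes overlapped and replicate 2 was high in both. Atf4, the central factor, measured 97.1, 132 and 75.2 FPKM in Nmd-/- cultures, against 97.2, 154 and 65.1 FPKM in Nmd+/+ cultures. The log2 difference was 0.00 (SE 0.33, 95% interval -0.78 to 0.77), and the SE was 0.11 with the replicate block. Replicate 2 was highest and replicate 3 lowest in both genotypes. Ddit3, which encodes CHOP, a factor that promotes cell death under lasting ER stress, measured 10.7, 19.4 and 7.84 FPKM in Nmd-/- cultures, against 11, 20.3 and 8.17 FPKM in Nmd+/+ cultures (log2 difference -0.05, SE 0.39, 95% interval -0.96 to 0.86). Its same-numbered libraries were nearly equal, and the replicate number held 99.7% of its variance on the log2 scale, the largest share in the set.

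Atf5, which encodes a factor translated in a similar way to ATF4 and linked to the mitochondrial stress response, measured 38.8, 110 and 26.6 FPKM in Nmd-/- cultures, against 33.1, 92.3 and 21.0 FPKM in Nmd+/+ cultures. The log2 difference was 0.27 (SE 0.64, 95% interval -1.24 to 1.77; adjusted p = 0.9997 in limma). It was higher in Nmd-/- in 3 of 3 pairs, by 0.22, 0.25 and 0.32, with an unadjusted p of 0.0247 and an adjusted p of 0.990 in limma with the block. Atf3, a stress-induced repressor, measured 0.742, 1.75 and 0.789 FPKM in Nmd-/- cultures, against 0.642, 2.79 and 0.752 FPKM in Nmd+/+ cultures (log2 difference -0.12, SE 0.35, 95% interval -0.93 to 0.70). Nupr1, a small chromatin protein induced by ATF4, had the widest range of the set. It measured 0.942, 16.1 and 0.861 FPKM in Nmd-/- cultures, against 0.458, 23.3 and 0.239 FPKM in Nmd+/+ cultures, so that the lower of the libraries numbered 2 stood 17.1 times above the highest of the other 4. For all 5 factors the libraries numbered 2 were the 2 highest of the 6. Of these, Nupr1 and Atf3 reached a mean of 1 FPKM only through those libraries and so had to be high there.

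The genes that feed back on the pathway or arrest growth had the same libraries highest: those numbered 2 were the 2 highest of the 6 for 6 of 6 genes. Trib3, a pseudokinase that restrains ATF4 and CHOP, measured 0.274, 2.52 and 0.120 FPKM in Nmd-/- cultures, against 0.279, 4.39 and 0.205 FPKM in Nmd+/+ cultures (log2 difference -0.24, SE 0.66, 95% interval -1.78 to 1.3). Outside replicate 2 it was thus below 0.3 FPKM in both genotypes. Trib3 reached a mean of 1 FPKM only through the libraries numbered 2 and so had to be high there. Chac1, an enzyme that degrades glutathione and a target of ATF4, ATF3 and CHOP, measured 3.27, 9.46 and 2.11 FPKM in Nmd-/- cultures, against 3.61, 10.1 and 2.85 FPKM in Nmd+/+ cultures. Its lower library numbered 2 stood 2.62 times above the highest of the other 4.

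Sesn2, a leucine sensor that restrains mTORC1, measured 14.4, 20.9 and 12.5 FPKM in Nmd-/- cultures, against 14.1, 15.6 and 11 FPKM in Nmd+/+ cultures (log2 difference 0.20, SE 0.22, 95% interval -0.31 to 0.70). The Nmd-/- library was higher in 3 of 3 pairs. Ppp1r15b, the constitutive partner of the phosphatase that removes the phosphate from eIF2α, measured 14.5, 17.7 and 13.6 FPKM in Nmd-/- cultures, against 14.1, 18.3 and 13.4 FPKM in Nmd+/+ cultures (log2 difference 0.01, SE 0.17, 95% interval -0.38 to 0.40). Its direction turned with the scaling between libraries, to -0.02 with median-of-ratios scaling. Ppp1r15b shares at least 100 exon bases with a gene on the other strand. The stress-induced partner of the same phosphatase, Ppp1r15a, or GADD34, lay between 9.61 and 16.1 FPKM. Ddit4, an inhibitor of mTORC1 also known as REDD1, lay between 10.9 and 15.4 FPKM, and for both genes the libraries numbered 2 were the 2 highest.

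The 9 genes of amino acid and one-carbon metabolism had both libraries numbered 2 highest for 6 genes and not for Slc7a11, Phgdh and Psat1. Asns, which makes asparagine and is the classic target of ATF4, measured 60.4, 125 and 53.4 FPKM in Nmd-/- cultures, against 51.4, 166 and 53.7 FPKM in Nmd+/+ cultures. Slc7a5, the light chain of the transporter LAT1 for large neutral amino acids, measured 25.4, 63.1 and 19.1 FPKM in Nmd-/- cultures, against 23.4, 62.9 and 16.2 FPKM in Nmd+/+ cultures. Slc3a2, the heavy chain that LAT1 and system xc- share, measured 56.2, 99.1 and 60.6 FPKM in Nmd-/- cultures, against 52.9, 91.8 and 48.9 FPKM in Nmd+/+ cultures (log2 difference 0.17, SE 0.30, 95% interval -0.54 to 0.87). For these 3 genes replicate 2 was above every other library, by at least 2.07, 2.48 and 1.52 times for Asns, Slc7a5 and Slc3a2. Mthfd2 and Shmt2, enzymes of mitochondrial one-carbon metabolism, ranged over 10.8 to 37.2 and 9.55 to 31.8 FPKM, with the same libraries highest.

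Slc7a11 had another order. It encodes the cystine-glutamate exchanger of system xc-, the partner of Slc3a2, and measured 14.1, 9.05 and 8.83 FPKM in Nmd-/- cultures, against 12.4, 8.71 and 9.64 FPKM in Nmd+/+ cultures. Replicate 1 was highest in both genotypes, by at least 1.28 times, and replicate 2 was not high in either. Of the serine synthesis enzymes, Phgdh, which catalyses the first step, measured 82.4, 89.3 and 50 FPKM in Nmd-/- cultures, against 75.2, 75.8 and 33.7 FPKM in Nmd+/+ cultures. The log2 difference was 0.31 (SE 0.36, 95% interval -0.53 to 1.14; adjusted p = 0.9997 in limma). Its pairs differed by 0.13, 0.23 and 0.56, with an unadjusted p of 0.0229 and an adjusted p of 0.990 in limma with the block, and it was -0.07 without Nmd+/+ replicate 3. Psat1, the second enzyme, measured 206, 194 and 172 FPKM in Nmd-/- cultures, against 184, 234 and 131 FPKM in Nmd+/+ cultures (log2 difference 0.10, SE 0.22, 95% interval -0.42 to 0.61). Psph, the last enzyme, lay between 9.50 and 31.0 FPKM and, unlike Psat1 and Phgdh, had both libraries numbered 2 highest; it shares at least 100 exon bases with a gene on the other strand.

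The promoters of the ATF4 arm genes are shown next, as a description. RefSeq promoter windows of the build GRCm38.p6, from 250 bases before to 50 after the start of transcription, were found for 35 of the 40 genes. They were searched on both strands for the 8-base element TGATGNAA, at which ATF4 binds together with a C/EBP factor. It was present in 7 of the 35 genes (Asns, Atf3, Chac1, Herpud1, Nupr1, Slc7a11 and Trib3), 6 of which belong to the 18 ATF4 arm genes with a window. It was held by 4.51% of all 27025 genes with a window. The genes of the set were chosen as known pathway members, so a larger share among them is not independent evidence. The 250 bases before the start of the 3 ATF4 arm genes with a match and the highest mean level are given 5′ to 3′ on the strand of the gene, with the matches in capitals.
Asns (chr6:7693210-7693459, minus strand): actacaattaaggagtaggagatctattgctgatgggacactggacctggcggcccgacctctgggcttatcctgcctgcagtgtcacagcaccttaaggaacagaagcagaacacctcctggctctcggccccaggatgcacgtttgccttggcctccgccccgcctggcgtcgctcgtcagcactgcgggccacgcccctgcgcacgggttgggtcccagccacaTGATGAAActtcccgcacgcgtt
Slc7a11 (chr3:50443614-50443863, minus strand): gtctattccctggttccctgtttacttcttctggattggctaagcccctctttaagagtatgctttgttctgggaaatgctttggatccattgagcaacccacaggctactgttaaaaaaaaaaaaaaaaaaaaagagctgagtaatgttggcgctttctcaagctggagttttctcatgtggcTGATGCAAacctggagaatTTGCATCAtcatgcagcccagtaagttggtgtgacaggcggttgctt
Nupr1 (chr7:126625471-126625720, minus strand): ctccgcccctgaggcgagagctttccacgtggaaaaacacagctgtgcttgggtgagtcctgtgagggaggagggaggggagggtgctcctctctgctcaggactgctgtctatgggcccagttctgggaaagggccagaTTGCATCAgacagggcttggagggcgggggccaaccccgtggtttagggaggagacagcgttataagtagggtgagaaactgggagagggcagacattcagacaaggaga
The match begins 23 bases before the start in Asns, 110 bases before it in Nupr1 and, as a match on each strand, 66 and 47 bases before it in Slc7a11. Asns and Nupr1 were highest in replicate 2 and Slc7a11 in replicate 1. A match is a sequence description and shows no binding. Whether the element had a part in the levels of replicate 2 was not tested.

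In the XBP1 arm Xbp1 and Ern1 were steady, with a highest value 1.23 and 1.34 times the lowest. Sel1l, Syvn1 and Edem1 varied more, by 1.96, 1.89 and 1.67 times. Xbp1 measured 39.4, 39.8 and 36.6 FPKM in Nmd-/- cultures, against 38.4, 44.9 and 38.3 FPKM in Nmd+/+ cultures (log2 difference -0.07, SE 0.13, 95% interval -0.36 to 0.23). Ern1, which encodes IRE1α, the enzyme that splices Xbp1, measured 2.18, 2.03 and 1.62 FPKM in Nmd-/- cultures, against 2.17, 1.94 and 1.67 FPKM in Nmd+/+ cultures (log2 difference 0.01, SE 0.14, 95% interval -0.33 to 0.34). Its same-numbered libraries were almost equal, and its direction turned to -0.01 with median-of-ratios scaling. Sel1l and Syvn1 encode the adaptor and the ubiquitin ligase of one complex that degrades misfolded ER protein, and their levels differed in order over the libraries. Sel1l measured 62.2, 75.5 and 76.8 FPKM in Nmd-/- cultures, against 61.6, 121 and 83.8 FPKM in Nmd+/+ cultures (log2 difference -0.26, SE 0.24, 95% interval -0.83 to 0.31), the highest value being that of Nmd+/+ replicate 2, without which the difference was -0.01. Syvn1 measured 34.6, 23.9 and 21.9 FPKM in Nmd-/- cultures, against 32.4, 18.3 and 20.2 FPKM in Nmd+/+ cultures (log2 difference 0.19, SE 0.26, 95% interval -0.41 to 0.79). Syvn1 was highest in replicate 1 of both genotypes. Edem1, which selects misfolded glycoproteins for degradation, lay between 3.32 and 5.55 FPKM.

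The ATF6 arm held 4 of the 5 most abundant genes of the set per length, and none of its genes passed the test. Atf6 itself measured 7.90, 10.2 and 8.22 FPKM in Nmd-/- cultures, against 7.84, 9.58 and 7.66 FPKM in Nmd+/+ cultures (log2 difference 0.06, SE 0.15, 95% interval -0.29 to 0.41). Calr, the calcium-binding chaperone calreticulin and the most abundant gene of the 40 per length, measured 476, 470 and 381 FPKM in Nmd-/- cultures, against 540, 441 and 355 FPKM in Nmd+/+ cultures (log2 difference 0.00, SE 0.19, 95% interval -0.44 to 0.45, and -0.02 with median-of-ratios scaling). Replicate 1 was highest and replicate 3 lowest in both genotypes. Pdia6, a disulfide isomerase, measured 57.6, 46.9 and 44.8 FPKM in Nmd-/- cultures, against 57.1, 48.6 and 33.5 FPKM in Nmd+/+ cultures (log2 difference 0.12, SE 0.21, 95% interval -0.38 to 0.62). Sdf2l1, an ER protein that works with the chaperone BiP, measured 3.28, 3.54 and 4.41 FPKM in Nmd-/- cultures, against 3.28, 3.82 and 2.91 FPKM in Nmd+/+ cultures (log2 difference 0.13, SE 0.15, 95% interval -0.23 to 0.48). It was the only gene of the set with its highest value in Nmd-/- replicate 3.

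Both libraries numbered 2 were highest for 4 of the 11 genes of this arm, Atf6, Herpud1, Manf and Pdia4, and Herpud1 had the largest step. Herpud1, an ER membrane protein of the degradation machinery, measured 20.4, 33.0 and 17.7 FPKM in Nmd-/- cultures, against 21.5, 32.7 and 18.3 FPKM in Nmd+/+ cultures, so that replicate 2 of both genotypes stood at least 1.52 times above the other libraries. Of the remaining genes, the lectin chaperone Canx lay between 148 and 205 FPKM, the disulfide isomerases Pdia3 and Pdia4 between 158 and 207 and between 56.4 and 82.1 FPKM, and the secreted survival factor Manf between 120 and 187 FPKM. The chaperone Hyou1 lay between 14.1 and 18.3 FPKM, and Creld2, an ER protein secreted under stress, between 15.2 and 21.6 FPKM. Canx, Pdia4, Manf, Hyou1 and Creld2 each had their lowest value in Nmd+/+ replicate 3, and Pdia3 in Nmd+/+ replicate 1. Manf shares at least 100 exon bases with a gene on the other strand.

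The ER stress element, CCAAT, 9 bases and CCACG, binds ATF6 together with NF-Y, and XBP1 can bind it as well. It was present, on either strand, in the windows of Calr, Canx, Creld2, Pdia6 and Syvn1, or 5 of 35 genes, and in 0.137% of all genes with a window. The shorter element ERSE-II, ATTGG, 1 base and CCACG, was present in Herpud1 and in 0.0444% of all genes with a window. The genes of the set were chosen as known pathway members, so shares above those of all genes are not independent evidence. The core TGACGTGG of a further element that XBP1 binds was in 0 of the 35 and in 0.714% of all genes with a window. For the 35 this says only that these letters are not in their windows. The 250 bases before the start are given for the 3 most abundant genes with the ER stress element and for Herpud1, with the matches in capitals.
Calr (chr8:84846932-84847181, minus strand): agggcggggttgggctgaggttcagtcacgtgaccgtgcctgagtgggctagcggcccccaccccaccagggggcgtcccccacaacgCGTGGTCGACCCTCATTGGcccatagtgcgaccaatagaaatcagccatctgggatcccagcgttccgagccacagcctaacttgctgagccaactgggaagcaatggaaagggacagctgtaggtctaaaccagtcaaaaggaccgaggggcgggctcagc
Canx (chr11:50325674-50325923, minus strand): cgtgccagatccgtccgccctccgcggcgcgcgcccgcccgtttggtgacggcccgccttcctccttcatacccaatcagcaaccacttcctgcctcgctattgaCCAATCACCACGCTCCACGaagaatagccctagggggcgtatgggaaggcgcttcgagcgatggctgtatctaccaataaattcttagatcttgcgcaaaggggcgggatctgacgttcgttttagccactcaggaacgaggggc
Pdia6 (chr12:17266339-17266588, plus strand): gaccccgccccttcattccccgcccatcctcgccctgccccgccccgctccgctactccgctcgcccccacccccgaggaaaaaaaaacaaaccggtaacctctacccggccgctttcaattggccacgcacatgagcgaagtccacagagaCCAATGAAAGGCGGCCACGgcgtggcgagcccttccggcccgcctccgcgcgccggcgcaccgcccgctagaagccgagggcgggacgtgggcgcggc
Herpud1 (chr8:94386179-94386428, plus strand): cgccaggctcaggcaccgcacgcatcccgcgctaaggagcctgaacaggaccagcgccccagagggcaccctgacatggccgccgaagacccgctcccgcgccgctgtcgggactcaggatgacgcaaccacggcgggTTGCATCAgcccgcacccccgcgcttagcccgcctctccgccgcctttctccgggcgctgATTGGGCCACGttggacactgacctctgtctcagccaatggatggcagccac
Among the XBP1 and ATF6 arm genes with a window only Herpud1 also held the ATF4 element, at 112 bases before the start, ahead of ERSE-II at 52 bases before it. The element begins 162, 145 and 98 bases before the start in Calr, Canx and Pdia6. Those 3 genes had their highest values in replicate 1, as did Syvn1. Creld2, which also holds the element, was highest in Nmd-/- replicate 3 (19.4 FPKM) and in Nmd+/+ replicate 2 (21.6 FPKM).

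**Figure D2:**
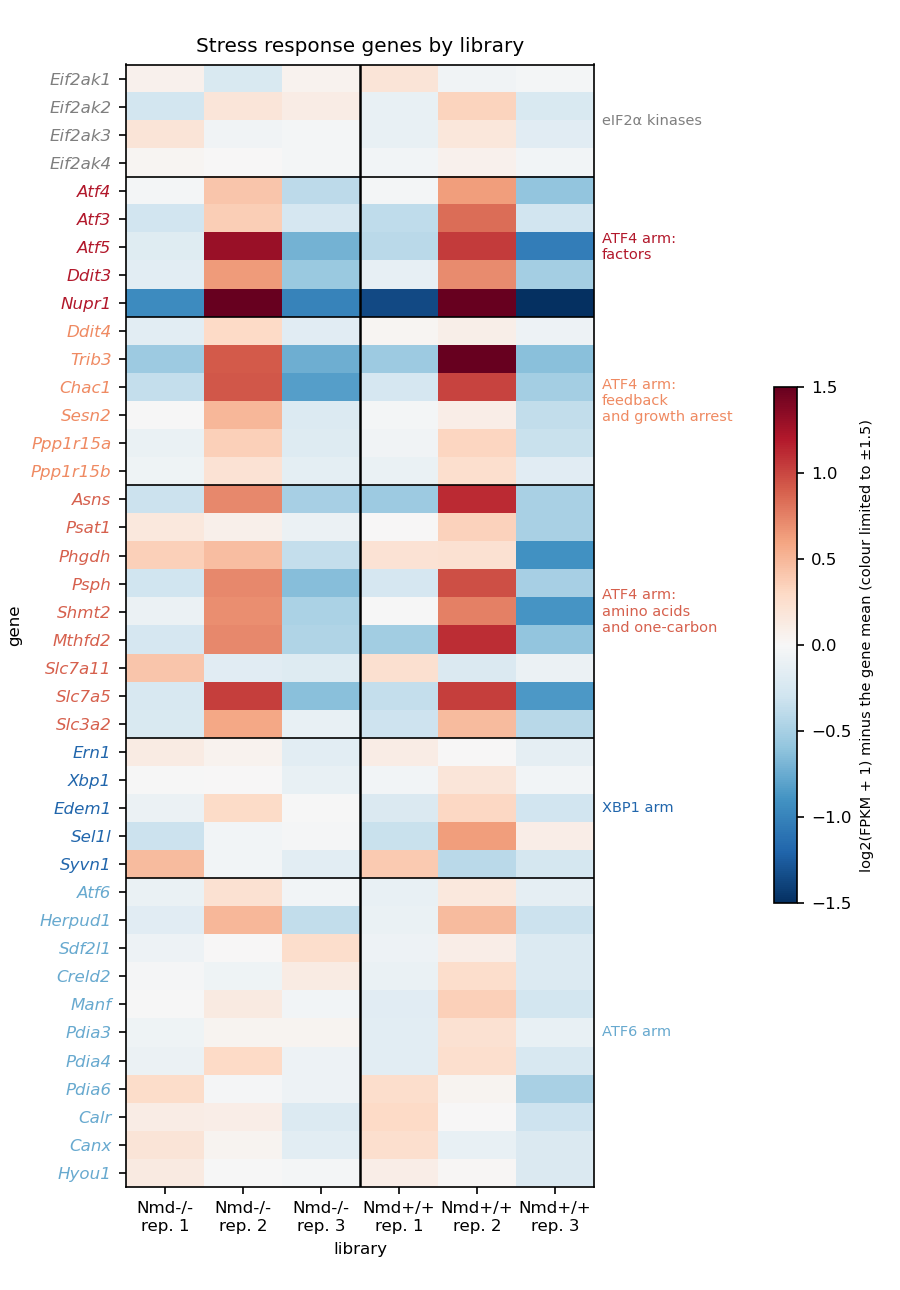
Level of each of the 40 genes (rows, grouped by role) in each of the 6 libraries (columns), as log2(FPKM + 1) minus the mean of the gene over the 6 libraries, with the colour limited to 1.5 on either side of 0. The columns of replicate 2 are red through most of the ATF4 arm in both genotypes and those of replicate 3 blue, while the XBP1 and ATF6 arms are mostly pale.

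The differences between replicate numbers were then set out for the whole set, as a description with no test, since the numbers are labels without a stated meaning. Both libraries numbered 2 were the 2 highest of the 6 for 24 of the 40 genes (60%, against 20.6% of all genes) and the 2 lowest for 1 gene, Eif2ak1 (2.5% against 18.8%). The 24 include Nupr1, Trib3 and Atf3, which had to be high there to reach a mean of 1 FPKM. With genes held to 1 FPKM over the libraries numbered 1 and 3, it was 21 of 37 (56.8%, against 20.1% of all genes). Both libraries numbered 3 were the 2 lowest for 20 genes (50% against 10.8%) and the 2 highest for 0 (0% against 4.18%). Both libraries numbered 1 were the 2 highest for 8 genes (20% against 25.9%), namely Calr, Canx, Eif2ak1, Ern1, Hyou1, Pdia6, Slc7a11 and Syvn1. They were the 2 lowest for 2, Atf3 and Sel1l (5% against 17.7%). The replicate number held a median of 91.5% of a member's variance on the log2 scale and the genotype 1.58%, beside 73.2% and 5.23% for all genes. By role the medians for the replicate number were 61.8% for the kinases, 97.6%, 96.4% and 95.4% for the factors, feedback genes and metabolic genes of the ATF4 arm, 85.2% for the XBP1 arm and 78.6% for the ATF6 arm.

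The steps of replicate 2 were then compared in size between the arms. Measured as log2(FPKM + 1) of replicate 2 minus the mean of replicates 1 and 3 of the same genotype, the median step over the 20 ATF4 arm genes was 0.87 in Nmd-/- cultures and 1.09 in Nmd+/+ cultures. Over the 16 genes of the XBP1 and ATF6 arms it was 0.07 in Nmd-/- cultures and 0.25 in Nmd+/+ cultures, and over all genes 0.01 and 0.02. A step above 1 in both genotypes was found for 9 of the 20 ATF4 arm genes, for 0 of the 16 ER arm genes and for 125 of all genes (0.856%). Nupr1 had the largest, 3.17 in Nmd-/- and 4.17 in Nmd+/+ cultures, followed in Nmd-/- cultures by Atf5 (1.74, and 1.77 in Nmd+/+), Trib3 (1.56, and 2.12) and Chac1 (1.52, and 1.40). The arms overlapped: the step of Herpud1, 0.77 in Nmd-/- and 0.69 in Nmd+/+ cultures, was larger in both genotypes than those of the ATF4 arm genes Phgdh (0.47, and 0.58), Sesn2 (0.61, and 0.30) and Slc7a11 (-0.28, and -0.30), among others. For 15 of the 20 ATF4 arm genes the Cufflinks 95% intervals of both libraries numbered 2 lay wholly above those of the other 4 libraries, as they did for 5 of the 16 ER arm genes and 7.3% of all genes. Such intervals describe the estimation of a value in one library, not the spread between cultures. Nupr1, Trib3 and Atf3 reached a mean of 1 FPKM only through the libraries numbered 2 and so had to be high there. Without them, and with all genes held to 1 FPKM over the libraries numbered 1 and 3, the libraries numbered 2 were the 2 highest for 14 of 17 ATF4 arm genes (82.4%, against 20.1% of all genes), and 7 of the 17 had a step above 1 in both genotypes (41.2% against 0.657%). The median step of the 17 was 0.75 in Nmd-/- cultures and 0.94 in Nmd+/+ cultures.

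**Figure D3:**
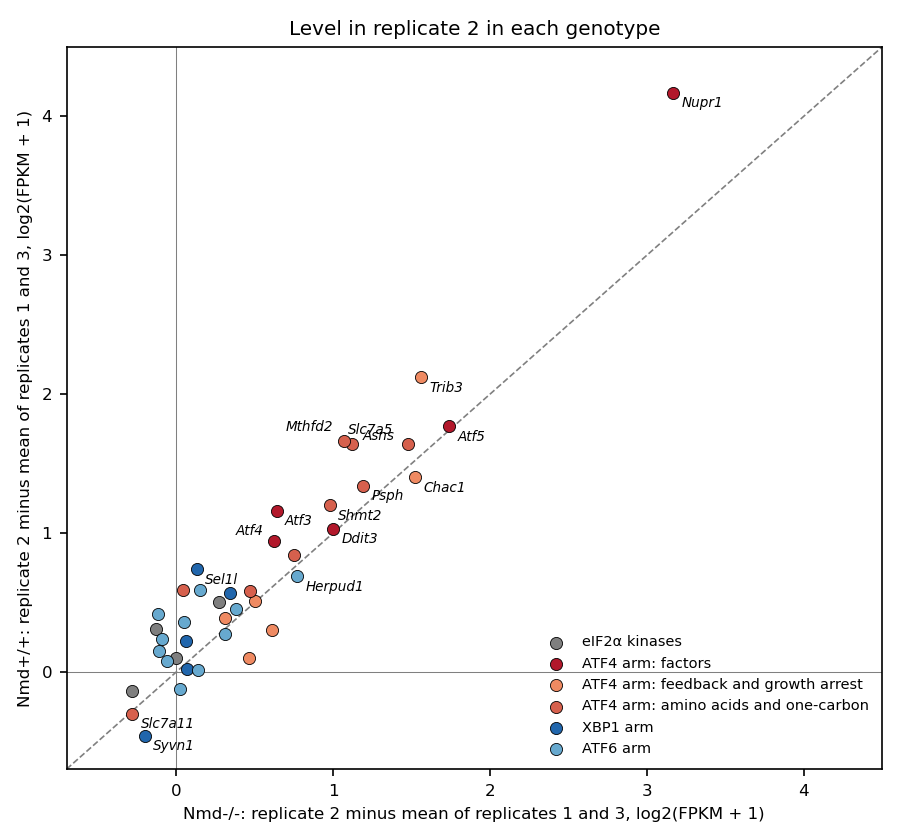
Step of replicate 2 in each genotype, as log2(FPKM + 1) of replicate 2 minus the mean of replicates 1 and 3, in Nmd-/- cultures (x axis) and in Nmd+/+ cultures (y axis) for each of the 40 genes, coloured by role. The dashed line marks equal steps. The genes above 1 on both axes all belong to the ATF4 arm, with Nupr1 at 3.17 and 4.17, while Slc7a11 and Syvn1 lie below 0 on both.

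Transcripts of other cell types differed in the same libraries. The fibroblast markers, summed above, had a median step in replicate 2 of 4.26 in Nmd-/- cultures and 3.83 in Nmd+/+ cultures. Each of these 6 markers reached a mean of 1 FPKM only through the libraries numbered 2 and so had to be high there. The 7 markers of other spinal neurons were all lowest in the libraries numbered 2, with a summed level of 232, 124 and 171 FPKM in Nmd-/- cultures and 243, 116 and 222 FPKM in Nmd+/+ cultures. The 6 oligodendrocyte lineage markers summed to 42.0, 51.9 and 30.3 FPKM in Nmd-/- cultures and 67.1, 54.7 and 50.8 FPKM in Nmd+/+ cultures. Radial glia and astrocyte markers summed to 3910, 4860 and 4120 FPKM in Nmd-/- cultures and 4000, 4230 and 3070 FPKM in Nmd+/+ cultures, most of it Vim, and the median step of the 7 markers was 0.01 in Nmd-/- and -0.25 in Nmd+/+ cultures. Dividing cell markers summed to 266, 308 and 337 FPKM in Nmd-/- cultures and 236, 335 and 226 FPKM in Nmd+/+ cultures. The low sums of microglia markers (2.66, 7.96 and 3.09 FPKM in Nmd-/- cultures, 2.39, 3.83 and 3.35 FPKM in Nmd+/+ cultures) and endothelial markers (10.2, 17.8 and 14.6 FPKM in Nmd-/- cultures, 9.24, 15.9 and 11 FPKM in Nmd+/+ cultures) were also highest in replicate 2. Most of the endothelial sum was Kdr, the only 1 of the 5 markers with a mean of 1 FPKM. Of the others, Cdh5 and Cldn5 were highest in replicate 2, Tek only in Nmd+/+ cultures, and Pecam1 in neither genotype. Erythroid markers stayed under 1 FPKM in sum, with Hbb-bs and Hbb-bt at 0 in all 6 libraries. The part of these cell types in the levels of the stress genes was not tested.

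**Figure D4:**
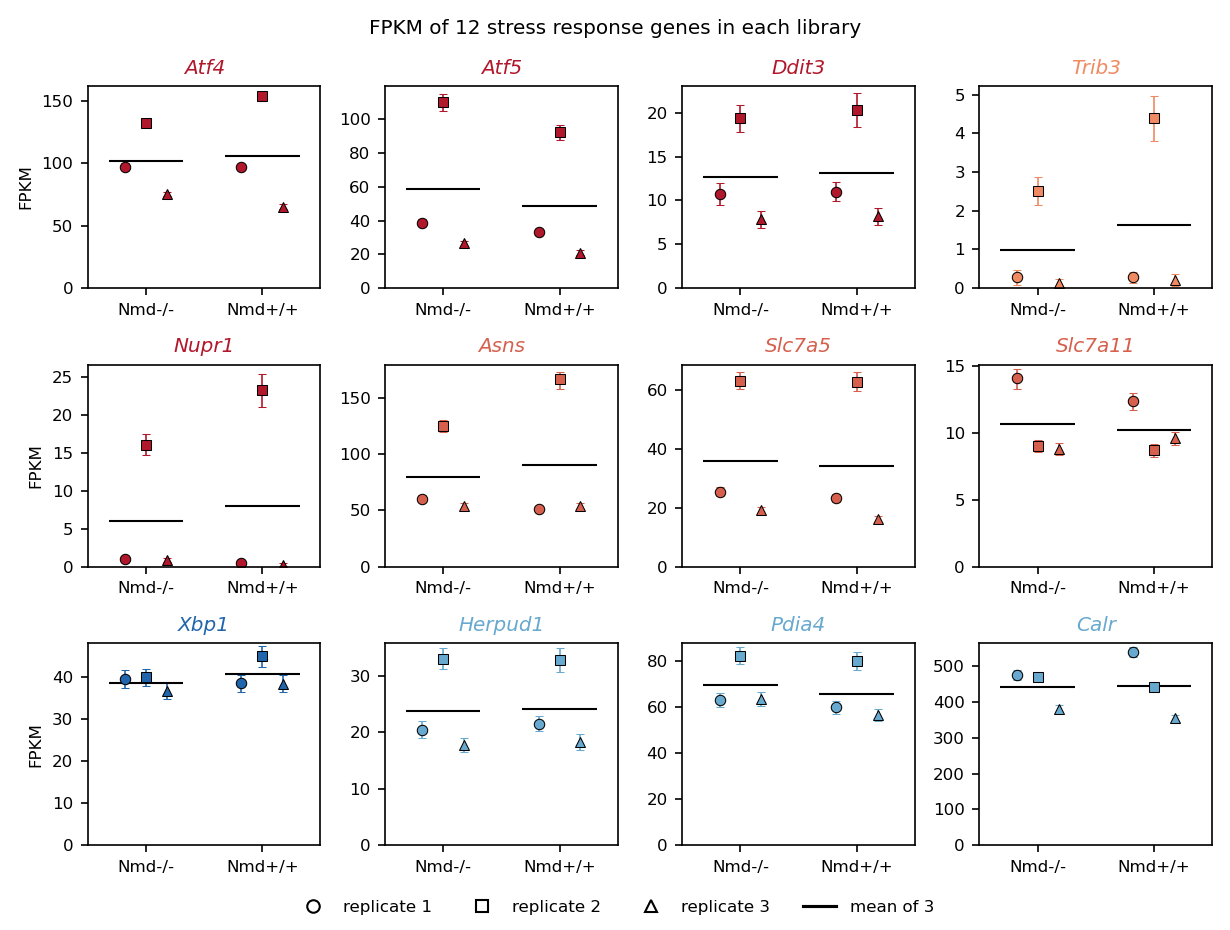
FPKM (y axes, each from 0) of 12 of the genes in the 3 Nmd-/- and the 3 Nmd+/+ libraries, with the Cufflinks 95% interval of each value as its bar, the replicate number as its marker and the mean of the 3 as a line. In Atf4, Atf5, Ddit3, Trib3, Nupr1, Asns, Slc7a5, Herpud1 and Pdia4 the squares of replicate 2 are the highest of both genotypes, in Slc7a11 the circles of replicate 1, and the 2 genotypes overlap in every panel.

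With replicate 2 of both genotypes left out, 0 of the 37 genes still at 1 FPKM passed in limma between genotypes. Their values no longer overlapped for 12 of them, 11 higher and 1 lower in Nmd-/-, where 25.1% of all genes had no overlap in the same comparison of 2 with 2 libraries. Leaving out Nmd+/+ replicate 2 alone also gave 12 without overlap, of 38 tested, against 19.2% of all genes.

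Further genes of the same pathways, 72 in all, were examined beside the 40. Of these 70 were tested, 0 passed in limma, 38 were higher and 32 lower in Nmd-/-, and the median log2 difference was 0.01. Among 29 further ATF4 targets the libraries numbered 2 were the 2 highest for 20 (69%), among 15 further XBP1 targets for 7 (46.7%), among 14 further ATF6 genes for 7 (50%) and among 12 eIF2 genes for 5 (41.7%), each beside 20.6% of all genes. The ATF4 target Stc2 reached a mean of 1 FPKM only through the libraries numbered 2 and so had to be high there. The further lists were chosen with earlier results of these data known, so their shares are not independent support. Eif4ebp1, an inhibitor of cap-dependent translation that ATF4 induces, measured 79.2, 141 and 64.1 FPKM in Nmd-/- cultures, against 68.0, 120 and 35.8 FPKM in Nmd+/+ cultures. Its log2 difference of 0.42 (SE 0.46) was higher in 3 of 3 pairs, with an unadjusted p of 0.00983 and an adjusted p of 0.944 in limma with the block. The proapoptotic gene Bbc3 measured 7.34, 10.0 and 6.60 FPKM in Nmd-/- cultures, against 9.05, 4.92 and 5.28 FPKM in Nmd+/+ cultures, with replicate 2 high in Nmd-/- cultures and low in Nmd+/+ cultures. The glycine transporter gene Slc6a9 lay between 5.94 and 12.8 FPKM and the autophagy receptor gene Sqstm1 between 77.1 and 100 FPKM.

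Among the further ER genes the co-chaperone Dnajb9, a target of XBP1, measured 29.4, 34.1 and 32.6 FPKM in Nmd-/- cultures, against 29.8, 42.4 and 38.2 FPKM in Nmd+/+ cultures, lower in Nmd-/- in 3 of 3 pairs without passing the test. The ER chaperone Hsp90b1 measured 322, 335 and 348 FPKM in Nmd-/- cultures, against 281, 391 and 300 FPKM in Nmd+/+ cultures. Hspa5, or BiP, the main ER chaperone, measured 176, 211 and 198 FPKM in Nmd-/- cultures, against 166, 231 and 160 FPKM in Nmd+/+ cultures, and was chosen for mention after its values were seen. In both chaperones the Nmd-/- values lay within the range of the Nmd+/+ values. The coat protein gene Sec24d lay between 10.6 and 20.3 FPKM, the glycoprotein folding sensor Uggt1 between 35.1 and 48.2 FPKM and the translocon-associated Ssr3 between 147 and 185 FPKM. Creb3 and Creb3l2, relatives of Atf6, lay between 12.4 and 16.5 and between 6.25 and 13 FPKM.

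Mbtps2, the protease that releases ATF6, measured 23.4, 22.3 and 23.5 FPKM in Nmd-/- cultures, against 23.6, 25.8 and 25 FPKM in Nmd+/+ cultures. Eif2b1, a subunit of the exchange factor that recharges eIF2, measured 35.7, 37.3 and 39.4 FPKM in Nmd-/- cultures, against 39.4, 39.9 and 40.1 FPKM in Nmd+/+ cultures. The values of both were lower in Nmd-/- without overlap (by less than the rounding of the nearest values in Eif2b1), and neither passed (adjusted p = 0.9997 in limma). They come from 70 further genes tested, and 0.91% of all genes were lower in Nmd-/- without overlap. Gcn1l1, a partner of GCN2, lay between 5.41 and 8.00 FPKM, and Eif2s2, the beta subunit of eIF2, between 21.8 and 47.5 FPKM. Eif2s3x, the X-linked gamma subunit of eIF2, measured 58.6, 54.5 and 37.5 FPKM in Nmd-/- cultures, against 55.5, 35.8 and 59.1 FPKM in Nmd+/+ cultures. Its low libraries, Nmd-/- replicate 3 and Nmd+/+ replicate 2, were those with Xist near 0 and with the Y-linked Eif2s3y at 19.6 and 21.2 FPKM.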

How the data were processed

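RNA-seq was deposited for 6 libraries, 3 Nmd-/- and 3 Nmd+/+. The deposited values are FPKM per gene from Cufflinks, per the file headers, with 95% interval bounds and a status. Per the submitters' processing notes the tools were Cufflinks 2.2.1, SAMtools 1.3, cutadapt 1.8, Trim Galore 0.4.0 and FastQC 0.10.1, and the build was GRCm38. The sources used here give neither the annotation release nor the use of strand, so overlapping genes may share reads. FPKM are relative to each library's total and carry no counts, and depth was read from the interval widths.

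Genes averaging 1 FPKM or more with an accepted status in every library (14611 of 39174) were compared, Nmd-/- minus Nmd+/+, with limma 3.58.1 in R 4.3.3 on log2(FPKM + 1) with an intensity trend and genotype as the only term. P-values are two-sided and adjusted by Benjamini-Hochberg over all genes tested, with a threshold of 0.05. The log2(FPKM + 1) scale understates changes of low genes. The procedure was tested on simulated data, with planted changes larger than any difference found for the genes of the set. That test therefore does not bear on differences of the size reported here.

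The correlation across genes between same-numbered libraries, as deviations from their genotype means, was 0.82 for number 1, 0.70 for number 2 and 0.39 for number 3, above every other pairing. This pairing comes from the values and not from a label, and a model blocking on that number was an alternative. The others were quantile normalization, median-of-ratios scaling, no filter on low values, a filter at 5 FPKM, a pseudocount of 0.1 and leaving out single libraries or replicate 2 of both genotypes.

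The genes, the further pathway lists and the marker lists were chosen with earlier results of these data known. Values of all 6 libraries and the difference are given for the main regulators and, in each role, for the 2 genes with the smallest unadjusted p and the most abundant gene. In each further list the 3 genes with the smallest unadjusted p and the most abundant gene are named, with values or a range. Other genes given with 6 values were chosen after their values were seen. Promoters came from RefSeq (GRCm38.p6), and overlaps of exons from GENCODE M21.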

Additional observations from a re-analysis of the deposited data

How the results depend on the processing

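Under each alternative 0 of the 40 genes, and 0 of all genes, passed in limma at an adjusted p of 0.05; without adjustment 65 of all genes were under 0.05, and 711 with the replicate block. Of the 21 genes whose difference was followed, Sel1l reversed under no alternative, and Sdf2l1 under none of those in which it could be tested, all but the filter at 5 FPKM. Atf3 and Trib3 fell below 1 FPKM without Nmd+/+ replicate 2 and with replicate 2 of both genotypes left out, and were not tested there. Their untested differences of means were then 0.27 and 0.06 for Atf3 and 0.46 and -0.06 for Trib3. With the replicate block the median log2 difference stayed at 0.03 and no direction changed. Reversals outside the left-out libraries were those of Ppp1r15b (-0.02 with median-of-ratios scaling, -0.01 with quantile normalization, -0.02 with the replicate block and median-of-ratios scaling), Ern1 (-0.01 in each of these) and Calr (-0.02, -0.01 and -0.02). With replicate 2 of both genotypes left out, Atf4 turned to 0.10, Ern1 to -0.01 and Calr to -0.04, and 12 genes did not overlap between genotypes, against 0 with all libraries, while the share of all genes was 25.1% and 2.67% with all libraries. The cause was not tested. Leaving out single libraries moved the members' median between -0.094 (without Nmd+/+ replicate 3) and 0.201 (without Nmd+/+ replicate 2), and the number without overlap between 0 and 12. Where tested, the log2 differences then ranged over -0.33 to 0.00 for Atf3, -0.30 to 0.31 for Atf4, -0.32 to 0.85 for Atf5, -0.04 to 0.15 for Atf6, -0.15 to 0.15 for Calr, -0.38 to 0.29 for Ddit3, -0.12 to 0.02 for Eif2ak1, -0.01 to 0.17 for Eif2ak3, -0.02 to 0.84 for Eif4ebp1, -0.06 to 0.09 for Ern1, -0.09 to 0.29 for Pdia6, -0.07 to 0.56 for Phgdh, -0.10 to 0.14 for Ppp1r15b, -0.12 to 0.29 for Psat1, 0.03 to 0.21 for Sdf2l1, -0.49 to -0.01 for Sel1l, 0.00 to 0.35 for Sesn2, -0.09 to 0.44 for Slc3a2, 0.00 to 0.43 for Syvn1, -0.76 to 0.06 for Trib3 and -0.10 to 0.01 for Xbp1. Both libraries numbered 2 were highest for 24 of 40 genes, for 23 of 40 under either other scaling, for 21 of 33 with the filter at 5 FPKM and for 21 of 37 at 1 FPKM over the libraries numbered 1 and 3, alternatives chosen after seeing the data. With 3 libraries per genotype the median SE of 0.21 limits what can be seen, and the precision that depth allows was not tested gene by gene.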
